A study of Mus musculus with 18 samples.

Results

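The 10 genes described here belong to growth hormone, insulin-like growth factor (IGF) and insulin signalling and were measured in the livers of mice given low-dose penicillin (LDP) from birth and of germ-free mice colonised with the microbiota of such mice. They were taken by gene symbol: Ghr, Igf1, Igfals, Igfbp1, Igfbp2, Igfbp3, Socs2, Cish, Irs2 and Insr. All 10 had 1 row each in both deposited count tables, of 38924 rows in the table of males and 23337 in the table of females, and all 10 passed the filter on low counts in every comparison. The study sequenced the liver RNA of 18 mice in 6 groups of 3, sampled at 8 weeks of age while eating a 45% kcal fat diet. Its first experiment used C57BL6J mice of both sexes, weaned at week 4 and moved to the fatty diet at week 6. LDP males were numbered 8, 10 and 11, untreated control males 5, 6 and 7, LDP females 39, 52 and 54, and untreated control females 29, 30 and 32. For its second experiment, female germ-free Swiss Webster mice were colonised at week 3 and never had the antibiotic themselves. The recipients of microbiota from female LDP donors were numbered 2, 5 and 8, and those of microbiota from female control donors 1, 3 and 7. Cage, litter and microbiota donor are not given, so p-values measure the spread between these mice, and mice that shared a cage or a donor count as independent.

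Growth hormone from the pituitary binds its receptor on hepatocytes and acts through the kinase JAK2 and the transcription factor STAT5 to switch on Igf1 and Igfals, whose products circulate together with IGF binding protein 3. The same signal induces Socs2 and Cish, short-lived inhibitors that act back on the receptor, and its pulses are sharper in male than in female rodents. Insulin acts through its receptor and the adaptor IRS2; when it is low, FOXO1 stays in the nucleus and keeps Igfbp1 and Irs2 transcribed, so both genes follow feeding and fasting within hours.

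The promoters of 3 members are shown because the test called 2 of them (Igfbp1 and Igfals) or because the gene varied most from mouse to mouse (Cish). Each window runs from 250 bases before to 50 after the start in RefSeq (GRCm38.p6), which held 12 such windows for 8 of the 10 members. No window was matched for Socs2 and Insr. Capitals in the Cish and Igfals windows mark TTCNNNGAA, the pattern bound by STAT5, and in the Igfbp1 window CAAAACA, the core of the insulin response element bound by FOXO factors; both were searched on both strands. The Cish window is chr9:107296409-107296708, the Igfals window chr17:24877981-24878280 and the Igfbp1 window chr11:7197537-7197836, all on the plus strand.
Cish: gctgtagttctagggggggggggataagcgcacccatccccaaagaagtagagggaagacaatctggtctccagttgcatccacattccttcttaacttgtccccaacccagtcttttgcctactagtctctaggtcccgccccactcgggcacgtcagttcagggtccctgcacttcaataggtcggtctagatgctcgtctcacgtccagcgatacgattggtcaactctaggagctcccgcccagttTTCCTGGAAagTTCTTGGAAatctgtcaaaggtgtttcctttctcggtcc
Igfals: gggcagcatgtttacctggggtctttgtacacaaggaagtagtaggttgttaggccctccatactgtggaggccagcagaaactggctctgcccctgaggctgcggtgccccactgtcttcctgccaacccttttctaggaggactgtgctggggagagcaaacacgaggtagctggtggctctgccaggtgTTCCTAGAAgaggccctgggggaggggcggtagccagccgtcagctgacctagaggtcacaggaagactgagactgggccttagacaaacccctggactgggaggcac
Igfbp1: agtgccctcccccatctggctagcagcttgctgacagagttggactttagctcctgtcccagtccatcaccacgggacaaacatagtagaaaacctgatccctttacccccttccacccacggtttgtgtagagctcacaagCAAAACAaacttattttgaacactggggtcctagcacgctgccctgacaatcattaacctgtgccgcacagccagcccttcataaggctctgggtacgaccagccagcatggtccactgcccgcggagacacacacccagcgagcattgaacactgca
The Cish window held 2 matches, TTCCTGGAA at position 1 and TTCTTGGAA at position 12, where 1 is the first base of the start. The Igfals window held TTCCTAGAA at position -58, another of the 3 Igfals windows held TTCTCAGAA at position -236, and the remaining window held no match. Of the 8 members with a window, only 2, Cish and Igfals, held TTCNNNGAA. The windows of Igf1 and Ghr held neither motif. The match in the Igfbp1 window lay at position -108, and the other member with that motif was Irs2, on the reverse strand at position -37. Of all 32851 promoter windows of this length, 8.3% held TTCNNNGAA and 6.28% held CAAAACA, so a match describes the sequence and does not show a bound site.

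Library totals ran over 70336366 to 74418889 counts in the 6 males, and over 17937005 to 28646168 in the 12 females. The rarest member reading was 99 counts, for Cish in control-microbiota recipient 1, and Ghr had at least 8614 counts in every library. Levels are given as CPM, the counts scaled by the TMM-normalised library size. They are not compared between males and females, because the sexes were counted in separate tables. Hepatocyte identity was plain in every library: all 13 hepatocyte markers were counted in each group, with a summed level of 109260 to 235430 CPM. In bulk liver, fewer cells of a type and less RNA per cell cannot be told apart.

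In control males, where the table of males gives gene lengths, the most abundant member per kilobase was Igfbp2 at 297 ± 63.0 CPM per kb, ahead of Ghr at 81.4 ± 4.64 (SD, n = 3). The levels of Igfbp1 (71.1 ± 52.8), Igf1 (68.7 ± 1.37) and Igfals (57.9 ± 5.05 CPM per kb) followed, and the order of Igfbp1 among them is not settled by its spread. Insr stood at 24.0 ± 0.394 CPM per kb. The lowest 4 were Igfbp3 (7.86 ± 0.568), Cish (6.85 ± 2.21), Socs2 (5.42 ± 1.12) and Irs2 (4.42 ± 1.41 CPM per kb), and each of these lay within the spread of its neighbour.

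Ghr, Igf1, Igfals and Insr had the smallest spread between mice of a group among the members, and Cish had the widest. In males the SD of log2 CPM within groups was 0.04 for Igf1, smaller than in all but 2.5% of the 15438 tested genes. It was 0.91 for Cish, above 99.6% of genes, 0.73 for Igfbp1 (99.02%), 0.67 for Socs2 (98.6%) and 0.15 for the median gene. In the 12 females, over 4 groups, Cish again had the widest spread of the members at 1.03, above 99.3% of 13295 tested genes, followed by Socs2 at 0.92 (98.9%). Igf1 was no longer unusual there, with an SD of 0.17, above 37.7% of genes and against a median of 0.21. These spreads describe how small a difference 3 mice against 3 could show for each gene.

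**Figure D1:**
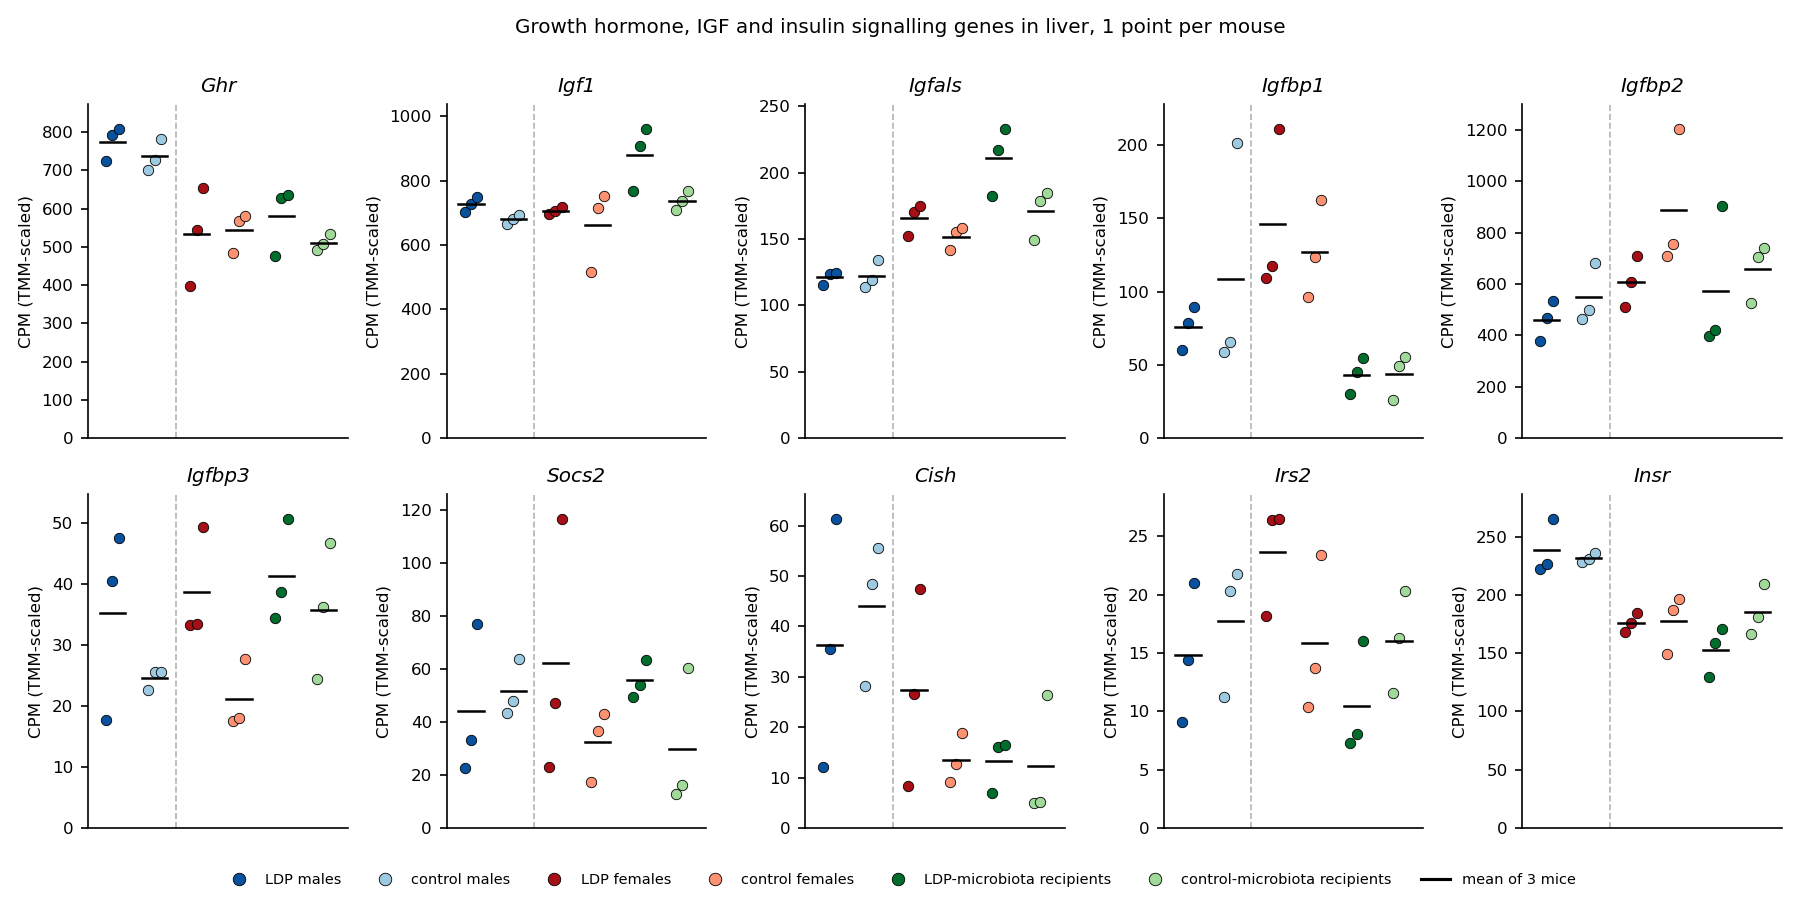
Level of each of the 10 genes in every mouse, in CPM on a linear axis from 0, with 1 point per mouse, groups in colour and a black line at the mean of 3 mice. The dashed line divides the male table from the female table, across which levels are not comparable; within a group the highest mouse is up to 5.07-fold above the lowest for Socs2 and up to 5.64-fold for Cish, against at most 1.64-fold for Ghr and 1.46-fold for Igf1, and all 6 recipients lie below all 6 C57BL6J females for Igfbp1.

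The comparisons of LDP with control mice ask what penicillin from birth did to these genes in each sex, and those of the recipients whether the transferred microbiota did so without the drug. By edgeR's quasi-likelihood test with Benjamini-Hochberg adjustment over all genes, 0 of the 10 members passed in males, where 0.00648% of 15438 tested genes did. DESeq2 called 0 members in males as well, of 42 genes it called in all. By edgeR 0 members had an unadjusted p under 0.05, against 5.23% of all tested genes. In females, 0 members passed by edgeR (0% of 12914 genes) and 1 by DESeq2, which called 15 genes in all. By edgeR 2 members had an unadjusted p under 0.05, Igfbp3 (higher) and Igfbp2 (lower), against 4.51% of all genes. In recipients, 0 members passed by edgeR (0.00782% of 12780 genes) and 0 by DESeq2, which called 28 genes in all. By edgeR 0 members had an unadjusted p under 0.05, against 5.11% of all genes. The groups did not overlap for 1 member in males (Igf1), 1 in females (Igfbp3) and 0 in recipients, where 10.5%, 9.15% and 11.8% of all tested genes did not overlap. The median log2 difference of the members was -0.12 in males, 0.17 in females and 0.14 in recipients, beside a median of 0.00 in males, 0.00 in females and -0.01 in recipients over all genes.

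**Figure D2:**
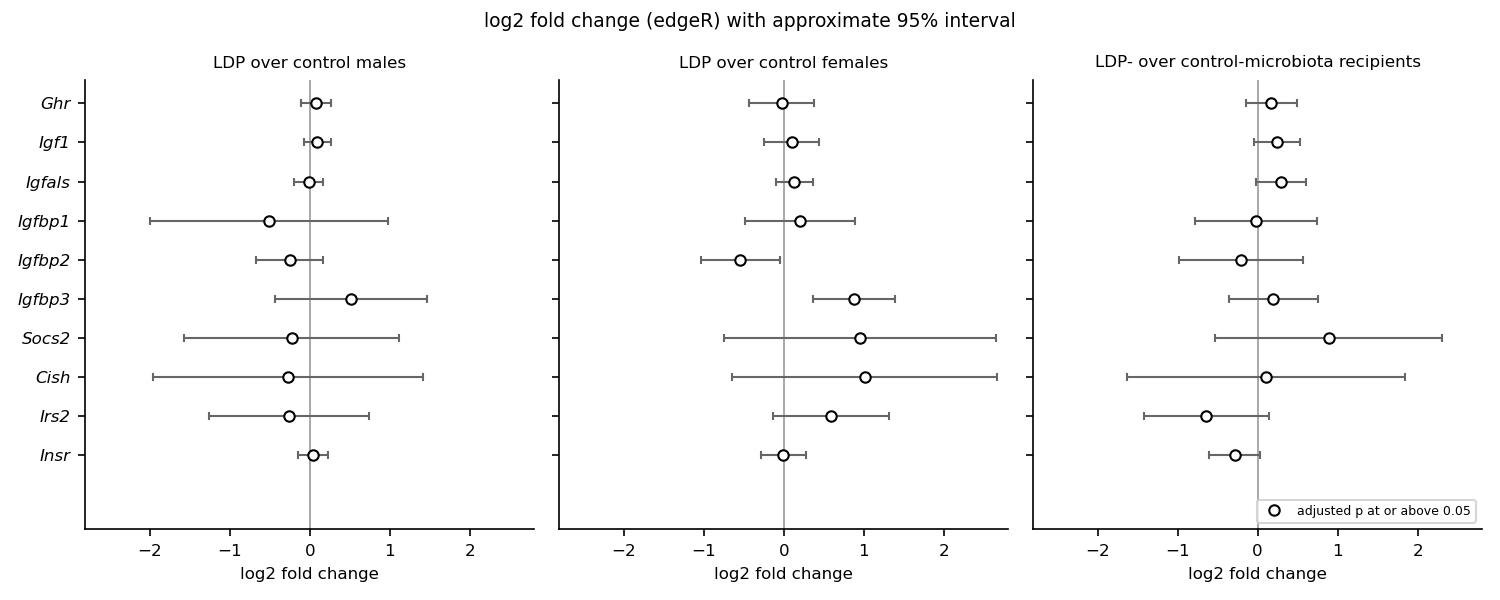
log2 fold change of each member, LDP over control, in males, females and microbiota recipients, with approximate 95% intervals from edgeR. Every circle is open because no adjusted p was under 0.05; the intervals of Igfbp2 and Igfbp3 in females leave 0 to one side, and those of Ghr, Igf1, Igfals and Insr are the narrowest in males.

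The growth hormone receptor gene itself, Ghr (chromosome 15, 3317760 to 3583492), gave no difference past the threshold in any of the 3 comparisons. It stood at 794, 724 and 809 CPM in LDP males, against 701, 783 and 726 in control males, and at 655, 545 and 398 CPM in LDP females, against 485, 582 and 568 in control females. LDP female 54 was the lowest of the 12 females for this gene. In recipients of LDP microbiota it was at 636, 628 and 476 CPM, and in those of control microbiota at 534, 508 and 492. The groups overlapped in all 3 comparisons. The log2 difference was 0.07 in males (95% interval -0.11 to 0.26), -0.03 in females (-0.43 to 0.38) and 0.17 in recipients (-0.14 to 0.49), with adjusted p from edgeR of 0.931, 0.999 and 0.846.

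Igf1 (chromosome 10, 87858265 to 87937042) encodes the growth factor that the liver releases in response to growth hormone. It was slightly higher in every LDP male (749, 703 and 729 CPM) than in any control male (666, 681 and 693 CPM), a separation with a fold of 1.07 that did not pass (log2 0.10, SE 0.07, unadjusted p = 0.219, adjusted p = 0.920 by edgeR). In females the LDP mice had 697, 717 and 705 CPM, against 716, 753 and 518 in control females, where control female 32 alone was low. The LDP-microbiota recipients had 962, 909 and 768 CPM, against 736, 768 and 709 in recipients of control microbiota. LDP-microbiota recipients 2 and 5 lay above all 3 of the others, and recipient 8 lay just under the highest of them. The log2 difference in recipients was 0.24 (SE 0.13, unadjusted p = 0.0871, edgeR adjusted p = 0.846).

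Igfals encodes the acid-labile subunit, which holds IGF1 and IGFBP3 in a long-lived complex in blood. It did not separate the groups in males, at 124, 115 and 124 CPM in LDP males against 119, 114 and 134 in control males. LDP females had 170.4, 175 and 152 CPM and control females 155, 158 and 142, overlapping through LDP female 54. The LDP-microbiota recipients had 183, 233 and 217 CPM and recipients of control microbiota 185, 179 and 149. LDP-microbiota recipient 2 lay just under control-microbiota recipient 1, and the other 2 lay above all of that group. The log2 difference was 0.29 in recipients (SE 0.14, unadjusted p = 0.0608, edgeR adjusted p = 0.846), 0.13 in females and -0.01 in males.

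Of the binding proteins, Igfbp3 (chromosome 11, 7206086 to 7213923), the main carrier of IGF1 in blood and made in the liver largely outside hepatocytes, had the most separated values. It stood at 33.4, 33.3 and 49.2 CPM in LDP females, against 17.6, 27.6 and 18.1 in control females. Every LDP female was above every control female, by a mean of 38.7 ± 9.17 against 21.1 ± 5.68 CPM (SD, n = 3 each) and a fold of 1.84. The log2 difference of 0.88 (SE 0.22, unadjusted p = 0.00454) had an adjusted p of 0.999 by edgeR's quasi-likelihood test, which called 0 genes in females. By DESeq2, which called 15, the adjusted p was 0.04997. Leaving out any 1 of the 6 females gave a log2 difference of 0.67 to 1.11, with edgeR adjusted p from 0.519 to 0.9999.

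In males Igfbp3 stood at 40.4, 47.4 and 17.6 CPM in LDP males 8, 10 and 11, against 25.6, 22.5 and 25.6 in control males. LDP males 8 and 10 lay above all controls and LDP male 11 below all of them, so the log2 difference of 0.52 (SE 0.37) had an adjusted p of 0.920 by edgeR. Without LDP male 11 it was 0.84 with an edgeR adjusted p of 0.00582, in a comparison that then called 66 genes in place of 1; over the 6 fits that left out 1 male, the adjusted p ran from 0.00582 to 0.9998. In recipients the groups overlapped, at 38.8, 34.4 and 50.7 CPM with LDP microbiota and 36.3, 24.4 and 46.7 with control microbiota (log2 0.20, SE 0.24).

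Markers of matrix-producing cells were higher in LDP females as well. The 8 fibroblast and matrix markers, among them the collagen genes Col1a1 and Col3a1, summed to 213, 158 and 177 CPM in LDP females, against 90.6, 109 and 97.5 in control females. All 8 were higher in LDP females, by a median log2 difference of 0.68, where 50.9% of all tested genes were higher. Of these markers 6 had an unadjusted p under 0.05 by edgeR, against 4.51% of all tested genes, and 0 had an adjusted one. In LDP males all 8 were higher too, by a median log2 difference of 0.20, where 50.7% of all tested genes were higher. Of the 8, 1 had an unadjusted p under 0.05 there by edgeR, against 5.23% of all tested genes. In recipients of LDP microbiota 4 of 8 were higher. The 8 markers summed to 117, 248 and 56.5 CPM in LDP males 8, 10 and 11, against 113, 148 and 108 in control males. LDP male 11 was again the lowest and LDP male 10 the highest. The order of mice did not follow Igfbp3 in every group. LDP female 39 had the highest sum of the LDP females, and LDP female 54 the most Igfbp3. Control male 6 had the highest sum and the least Igfbp3 of the control males. Mesothelial markers summed to 23.0, 11.4 and 8.74 CPM in LDP females, against 5.64, 6.75 and 5.57 in control females, and all 5 tested were higher. Hepatic stellate markers summed to 675 to 823 CPM in LDP females and 631 to 735 in control females. Sinusoidal endothelial markers summed to 786 to 841 CPM in LDP females and 823 to 930 in control females. Kupffer cell markers summed to 1063.6 to 1356 CPM and 1030.1 to 1339 CPM in the same groups. Monocyte and macrophage markers summed to 82.0 to 94.1 CPM in LDP females and 59.7 to 83.1 CPM in control females. All 7 tested were higher in LDP females (median log2 0.29), and 2 of 7 were higher in LDP males. None of these markers was at 0 in any group, and their part in the Igfbp3 difference was not tested.

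**Figure D3:**
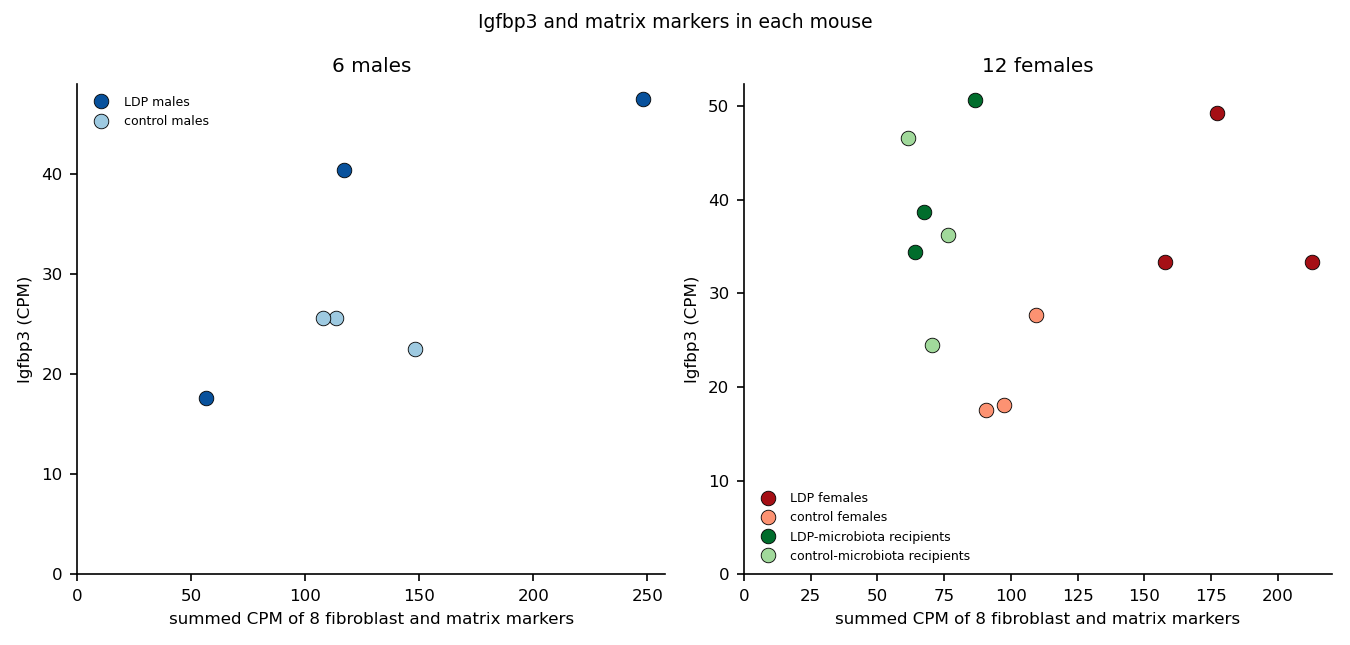
Igfbp3 in CPM (vertical) against the summed CPM of 8 fibroblast and matrix markers (horizontal), 1 point per mouse, males on the left and females on the right, both axes linear from 0. The 3 LDP females stand at 158 to 213 CPM of markers and at least 33.3 CPM of Igfbp3, the control females at 90.6 to 109 CPM and at most 27.6 CPM, and the recipients at 61.4 to 86.6 CPM of markers and 24.4 to 50.7 CPM of Igfbp3.

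In the recipients, Igfbp3 reached 50.7 CPM while the same 8 markers summed to 64.0 to 86.6 CPM with LDP microbiota and 61.4 to 76.3 CPM with control microbiota. Set against the 6 C57BL6J females, the recipients had lower levels of all 8 markers (median log2 -0.9997). Igfbp3 was higher there without passing (log2 0.43, edgeR adjusted p = 0.110).

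Igfbp2 (chromosome 1, 72824503 to 72852474), a binding protein made by hepatocytes and known to fall with obesity, had lower values in most LDP females than in control females. LDP females had 510.2, 609 and 709.7 CPM, against 1205, 756 and 708 in control females. The groups met only at LDP female 54 and control female 32, and control female 29 was far above the rest. The log2 difference was -0.54 (SE 0.22, unadjusted p = 0.0362, edgeR adjusted p = 0.999). LDP males had 467, 535 and 377 CPM and control males 681, 499 and 464, with a log2 difference of -0.25 (SE 0.18, edgeR adjusted p = 0.920). Recipients of LDP microbiota had 419.8, 397 and 904 CPM and recipients of control microbiota 741, 704 and 526, so that recipient 8 was above all the others and recipients 2 and 5 below them.

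Igfbp1 (chromosome 11, 7197782 to 7202546, beside Igfbp3) encodes the binding protein that insulin suppresses from hour to hour. LDP males had 78.3, 60.4 and 89.5 CPM, against 201, 65.6 and 58.4 in control males, where control male 5 alone stood high and the next male of either group was LDP male 11. The log2 difference was -0.51 with an interval of -2.00 to 0.98, and 0.29 without that mouse. LDP females had 109, 118 and 211 CPM and control females 162, 123 and 96.2. Recipients had 54.7, 44.8 and 30.1 CPM with LDP microbiota and 49.3, 26.0 and 55.5 with control microbiota. All 3 pairs of groups overlapped, and the edgeR adjusted p was 0.934 in males, 0.999 in females and 0.991 in recipients.

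Socs2 (chromosome 10, 95385362 to 95417180) encodes an inhibitor of growth hormone signalling whose loss in mice gives gigantism. LDP males had 33.1, 77.1 and 22.6 CPM, against 43.5, 47.8 and 63.7 in control males, and the 3 LDP males spanned all the controls. LDP females 39, 52 and 54 had 23.0, 47.2 and 117 CPM and control females 36.6, 43.1 and 17.5. The last LDP female was the highest of the 12 females. Recipients of LDP microbiota had 54.1, 49.7 and 63.4 CPM, against 12.7, 60.6 and 16.1 in recipients of control microbiota, of which recipient 3 alone reached the other group. The log2 difference was -0.22 in males (SE 0.51), 0.95 in females (SE 0.67) and 0.89 in recipients (SE 0.59), with adjusted p from edgeR of 0.969, 0.999 and 0.846. Without control-microbiota recipient 3, the difference in recipients was 1.95 with an edgeR adjusted p of 0.0482, the lowest of 6 such fits, whose highest was 0.999.

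Cish encodes a related SH2-domain inhibitor that is induced through STAT5. It had 35.5, 61.4 and 12.2 CPM in LDP males, against 28.1, 48.3 and 55.5 in control males. LDP females had 8.40, 26.5 and 47.4 CPM and control females 9.10, 18.9 and 12.7. With LDP microbiota, recipients had 16.1, 7.01 and 16.5 CPM, and with control microbiota 4.999, 26.5 and 5.16. The groups overlapped throughout, and the log2 difference was -0.27 in males (SE 0.65), 1.01 in females (SE 0.66) and 0.10 in recipients (SE 0.72).

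Both inhibitors ranked the mice alike. Within 5 of the 6 groups, the 3 mice stood in the same order for Socs2 and for Cish, the exception being the control females, and no other pair of members shared its order in more than 3 groups. This pairing was picked out after the values were seen and carries no test. In LDP males the order was 10, 8, 11, in LDP females 54, 52, 39, and in recipients of control microbiota 3, 7, 1. Over the 12 female libraries, the non-member genes whose centred log2 CPM lay closest to that of Socs2 were Keg1 (root mean square difference 0.57), the liver transcription factor gene Onecut1 (0.59) and Spink5 (0.61), among 11951 genes with a mean of at least 1 CPM. Cish would have come second in that list, at 0.58. Socs2 itself varied by 0.91 around its own mean on the same scale, so the likeness is partial.

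**Figure D4:**
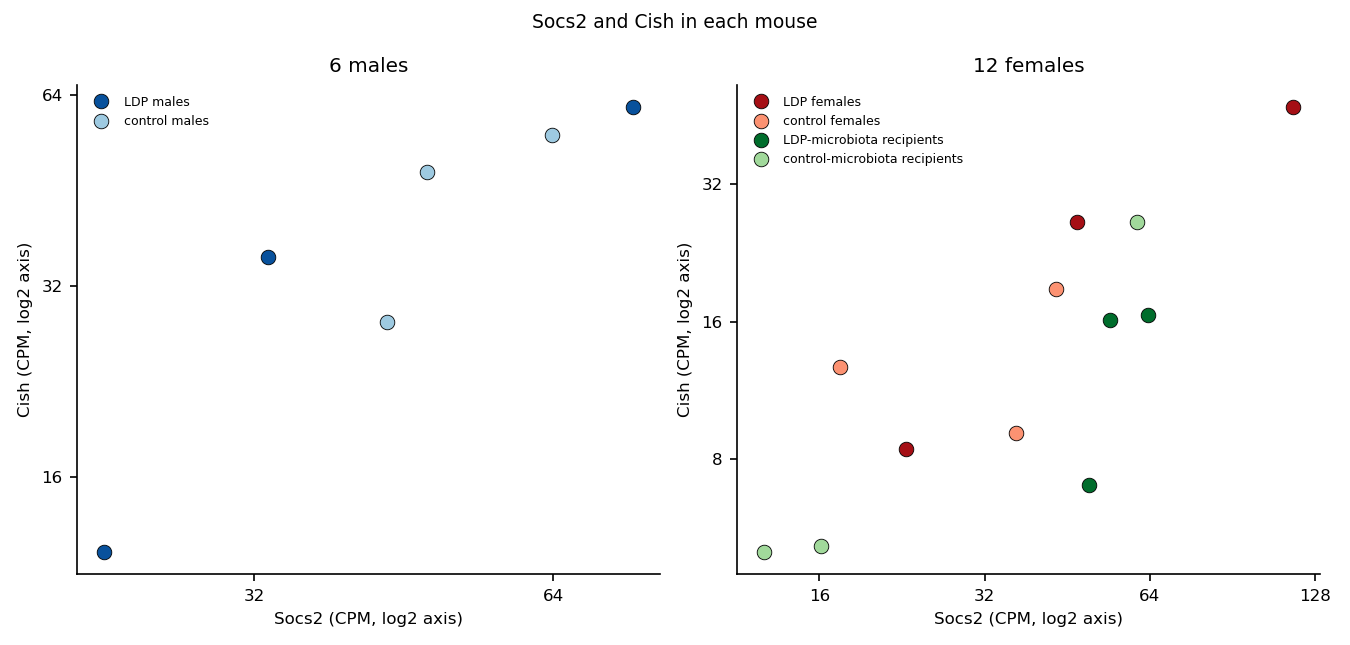
Cish against Socs2 in CPM, both axes on a log2 scale, 1 point per mouse, with the 6 males on the left and the 12 females on the right. Mice with more Socs2 have more Cish within most groups, and LDP and control points are interspersed.

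On the insulin side, Insr, the insulin receptor gene (chromosome 8, 3122061 to 3279617), spanned 1.19-fold from lowest to highest over the 6 males. The span was 1.31-fold over the 6 C57BL6J females and 1.62-fold over the 6 recipients. LDP males had 223, 265 and 227 CPM and control males 228, 231 and 236. LDP females had 168, 185 and 176 CPM and control females 149.6, 187 and 196. Recipients of LDP microbiota had 170.5, 159 and 129 CPM, against 209, 167 and 181 in recipients of control microbiota, and recipient 2 of the first group lay above recipient 3 of the second. The log2 difference in recipients was -0.29 (SE 0.14, unadjusted p = 0.0747, edgeR adjusted p = 0.846), and in the other comparisons it was 0.04 (males) and -0.01 (females).

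Irs2, which encodes the adaptor that links the receptor to PI3 kinase in liver, had mostly higher values in LDP than in control females, and mostly lower values in recipients of LDP than of control microbiota. LDP females had 26.4, 18.2 and 26.5 CPM, against 13.7, 23.4 and 10.4 in control females, with LDP female 52 inside the range of controls. Recipients of LDP microbiota had 7.28, 16.0 and 8.03 CPM and recipients of control microbiota 16.3, 20.3 and 11.5, with recipient 5 inside the range of the second group. The log2 difference was 0.59 in females (SE 0.30, unadjusted p = 0.0942, edgeR adjusted p = 0.999) and -0.64 in recipients (SE 0.34, unadjusted p = 0.0959, edgeR adjusted p = 0.846). LDP males had 9.11, 20.96 and 14.4 CPM and control males 11.3, 21.8 and 20.3 (log2 -0.26, SE 0.39).

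The test of the difference between those effects compared the LDP effect in females with that in recipients. Irs2 had the smallest p of the members, with a log2 difference of effects of 1.22 (SE 0.51, unadjusted p = 0.0378, edgeR adjusted p = 0.788). It was the only member with an unadjusted p under 0.05, where 5.94% of 13295 genes had one, and 0 members passed by edgeR (0% of all genes) or by DESeq2. Irs1, the partner adaptor gene, had a log2 difference of effects of 0.60 (SE 0.19, unadjusted p = 0.00689, edgeR adjusted p = 0.788). Between males and females, 0 members passed by edgeR (0% of 12747 genes) or DESeq2 and 0 had an unadjusted p under 0.05 (2.71% of all genes). Sex and count table are the same split here, so they cannot be told apart. The male effect minus the female effect was widest for Cish (log2 -1.30, SE 0.96) and Socs2 (-1.19, SE 0.88), each with an edgeR adjusted p of 0.9999 and an interval that spans 0.

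The wider pathways gave 0 genes past the threshold in any of the 3 LDP comparisons by edgeR. The counts that follow are therefore of unadjusted p under 0.05 and of positive differences. Of all tested genes, 5.23% had such a p in males, 4.51% in females and 5.11% in recipients. Positive differences were found for 50.7% of all tested genes in males, 50.9% in females and 48.4% in recipients. Of 21 further genes of growth hormone receptor and JAK-STAT signalling tested in males, 10 were higher and 11 lower in LDP mice, with 1 higher at that level, Jak2 (log2 0.15, SE 0.06). In females, 14 of 21 were higher and 7 lower, 0 at that level, and in recipients 4 of 20 were higher and 16 lower, with 1 higher at that level, the prolactin receptor gene Prlr (log2 0.41, SE 0.16). Of the other IGF system genes, 11 of 13 were higher in LDP males, 0 at that level, by a median of 0.28. In females 6 of 9 were higher, and 2 at that level were binding proteins, Igfbp6 (log2 1.83, SE 0.48) and Igfbp5 (1.01, SE 0.41). In recipients 5 of 10 were higher, 0 at that level.

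Of 43 genes of the insulin, PI3 kinase and AKT pathway, 15 were higher and 28 lower in LDP males, 23 higher and 20 lower in LDP females, and 10 higher and 33 lower in recipients of LDP microbiota. The 2 at an unadjusted p under 0.05 in recipients were both lower, Irs1 (log2 -0.38, SE 0.14) and the mTOR complex gene Rictor (-0.43, SE 0.17). Genes that insulin induces in liver were higher in 8 of 9 in LDP males (median log2 0.48, 4 with an unadjusted p under 0.05). Among them were the lipid synthesis genes Acly (0.48, SE 0.13) and Fasn (0.64, SE 0.22). They were higher in 8 of 9 in LDP females too, by a median of 0.24 and with 0 at that level, but in 5 of 9 in recipients of LDP microbiota (median 0.07, 1 at that level). Fasting-induced genes were lower in 8 of 10 in LDP males (median -0.13) and in 9 of 10 in LDP females (median -0.35), but in 4 of 10 in recipients of LDP microbiota (median 0.06). Of 12 FOXO1-induced genes, 6 were lower in LDP males, 9 in LDP females and 10 in recipients of LDP microbiota, by medians of -0.02, -0.05 and -0.10. The smallest p of the fasting-induced genes was for Nr0b2 in females (log2 -0.73, SE 0.30). Acly passed in males once LDP male 11 was left out (log2 0.61, edgeR adjusted p = 0.0411), in the fit that called 66 genes in place of 1. Over the 6 fits that left out 1 male, the edgeR adjusted p of Acly ran from 0.0411 to 0.9998. The edgeR adjusted p of each gene named here was at least 0.846 with all mice, and the median over all genes in each comparison lay within 0.01 of 0.

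Liver genes with a sex bias set by the pattern of growth hormone release were read in the same way. In LDP males, 16 of 20 male-biased genes were lower (median log2 -0.13), 0 at an unadjusted p under 0.05. Of 16 female-biased genes, 13 were higher (median 0.23), 3 at that level, including Atp6v0d2 (1.01, SE 0.29) and Abcd2 (0.78, SE 0.21). In females, 10 of 17 male-biased and 14 of 22 female-biased genes were higher in LDP mice. Those of smallest p were Cyp2d9 among the first (-0.59, SE 0.19) and Cyp4a14 (-1.30, SE 0.35) and A1bg (1.17, SE 0.36) among the second. In recipients of LDP microbiota, 9 of 16 male-biased genes were higher, 4 at that level, led by Mup3 (0.94, SE 0.20). Of 22 female-biased genes 17 were higher, 4 at that level, and 1 was lower at that level, Cyp17a1 (-0.48, SE 0.14). None of these passed by edgeR over all genes. DESeq2 called Abcd2 in males, A1bg in females, and Mup3 and Cyp2b13 in recipients. Over all genes DESeq2 called 42 in males, 15 in females and 28 in recipients. By edgeR, Atp6v0d2 passed without LDP male 11 (log2 1.28, adjusted p = 0.0219), in the fit that called 66 genes, and A1bg without LDP female 39 (1.49, adjusted p = 0.0489). Each of these 2 genes passed in 1 of the 6 fits that left out 1 mouse. Mup and Cyp values are uncertain, because close copies can share reads.

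The 6 recipients were set against 6 C57BL6J females, over both microbiota, in the table of females. This contrast differs in strain, in life without microbes until week 3 and in experiment, which cannot be told apart. The weeks of weaning and of diet start are not given for the recipients, so diet history may differ too. By edgeR, 2 of the 10 members passed, 1 lower and 1 higher, where 26.7% of 13295 genes passed (14.2% lower and 12.6% higher). In this contrast 5 members had an unadjusted p under 0.05, against 38.7% of all genes. A share of 2 in 10 is near the background.

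Igfbp1 fell to 26.0 to 55.5 CPM in the 6 recipients, against 96.2 to 211 CPM in the 6 C57BL6J females, with no overlap. Groups did not overlap for 13% of all tested genes. The mean was 43.4 ± 12.6 CPM in recipients and 137 ± 42.7 CPM in C57BL6J females (SD, n = 6 each), a 3.14-fold lower level (log2 -1.65, SE 0.25, edgeR adjusted p = 8.81e-04). Igfals rose to 191 ± 29.9 CPM in recipients, against 159 ± 12.1 CPM in C57BL6J females (log2 0.26, SE 0.09, edgeR adjusted p = 0.0380), with overlapping groups. It lost that call with upper quartile factors (adjusted p = 0.0524) and in 10 of the 12 fits that left out 1 mouse. Igf1 was 1.18-fold higher without passing (edgeR adjusted p = 0.0995), with 709 to 962 CPM in recipients against 518 to 753 CPM in C57BL6J females. Igfbp3 (log2 0.43, edgeR adjusted p = 0.110), Irs2 (-0.59, edgeR adjusted p = 0.118) and Igfbp2 (-0.26, edgeR adjusted p = 0.410) did not pass either. Each of these 3 passed in only 1 of the 12 fits that left out 1 mouse. These were Igfbp3 without recipient 3 of control microbiota (log2 0.54, edgeR adjusted p = 0.0375), Irs2 without recipient 5 of LDP microbiota (-0.80, edgeR adjusted p = 0.0259) and Igfbp2 without recipient 8 of LDP microbiota (-0.51, edgeR adjusted p = 0.0348). Over the 12 fits the edgeR adjusted p reached 0.2295 for Igfbp3, 0.2669 for Irs2 and 0.7089 for Igfbp2.

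**Figure D5:**
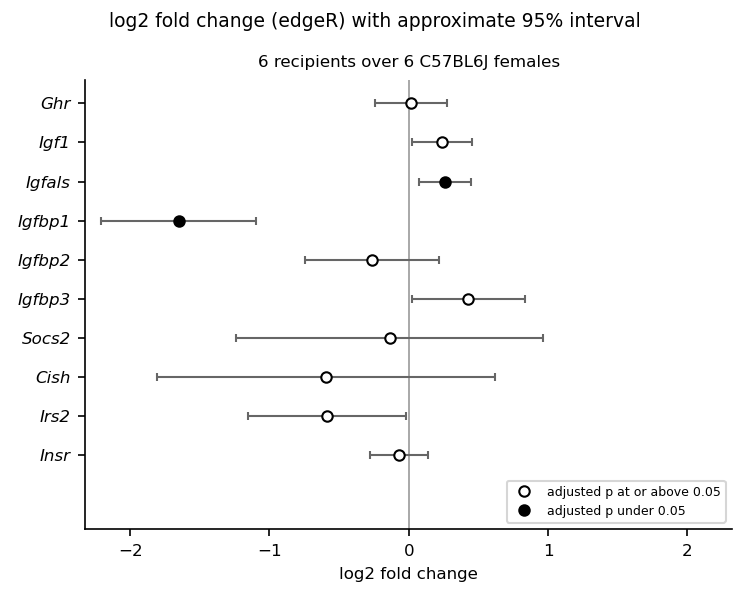
log2 fold change of each member in 6 recipients over 6 C57BL6J females, with approximate 95% intervals from edgeR; filled circles have an adjusted p under 0.05. Igfbp1 stands apart at -1.65, Igfals is filled at 0.26, and Ghr and Insr lie near 0 with narrow intervals.

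Some genes of the insulin and growth hormone lists changed in the same contrast, and their counts are read against the 26.7% of all tested genes that passed (14.2% lower and 12.6% higher). Of 9 genes that insulin induces in liver, 4 fell in recipients and 0 rose by edgeR: the desaturase Scd1 (log2 -3.86), Fasn (-1.11), Acaca (-0.97) and Acly (-0.65). Of 10 fasting-induced genes, 2 rose, among them Nr0b2 (0.69), and 2 fell, Lpin1 (-2.22) and Cpt1a (-0.29). Nr0b2 and Cpt1a lost the call in some of the fits that left out 1 mouse, with edgeR adjusted p up to 0.0762 and 0.0851. Of 12 FOXO1-induced genes, Sesn1 alone changed and fell (-0.51). In the insulin, PI3 kinase and AKT list, 3 of 43 rose, led by the receptor-binding adaptor gene Grb10 (0.76), and 1 fell, Pik3cd (-0.91), while in the JAK-STAT list 2 of 21 fell, among them Ptpn6 (-0.30), and 0 rose. The share that passed was above that of all genes in the insulin-induced and fasting-induced lists and below it in the FOXO1, the insulin, PI3 kinase and AKT, and the JAK-STAT lists.

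Genes whose sex bias in liver is set by growth hormone also changed. The counts in this paragraph, also those of clock, marker and acute phase genes, stand beside 26.7% of all tested genes that passed. Of all tested genes, 14.2% passed as lower and 12.6% as higher. Of 17 male-biased ones, 7 fell and 1 rose in recipients, with Serpina1e at a log2 difference of -4.39 and Mup20 at -3.12, both of which have close copies in the genome. Of 22 female-biased ones, 6 rose, among them Hao2 (3.25) and Cyp3a41a (2.82), and 6 fell, among them Cyp2a4 (-1.08) and Fmo2 (-0.69). Beside Igfbp1, clock genes moved too: 3 of 17 rose and 6 fell, led by Tef (-0.64), Per2 (-0.78), Dbp (-0.82) and Per3 (-0.76), and the hour of sampling and the feeding state are not given. Fibroblast and matrix markers were lower in recipients in 8 of 8, 6 past the threshold (median log2 -0.9997), and mesothelial markers in 6 of 6, 2 past it. Kupffer cell markers were lower in 11 of 12, of which 6 fell, and the other 1 rose. They summed to 985 to 1239 CPM in recipients and 1030.1 to 1356 CPM in C57BL6J females. Monocyte and macrophage markers were lower in 7 of 7, 3 past the threshold, and summed to 44.0 to 66.8 CPM in recipients and 59.7 to 94.1 CPM in C57BL6J females. Of 22 acute phase genes, 9 rose and 1 fell, while hepatocyte markers summed to 167810 to 235430 CPM in recipients and 190780 to 205490 CPM in C57BL6J females. The part of any of these in the Igfbp1 difference was not tested.

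Within the 12 females, the genes that followed Igfbp1 most closely in centred log2 CPM were Cd72 (root mean square difference 0.34), the cyclin gene Ccnf (0.35) and Itgax (0.38), which encodes an integrin of dendritic cells and macrophages. Igfbp1 varied by 0.92 around its mean, and the 12 libraries hold both strains, across which it separated, and between which the Kupffer, monocyte and macrophage markers differed as given above. For Igf1, which varied by 0.21, the closest were Slc22a30 (0.10), Nipsnap3b (0.11) and Zfp414 (0.11). Igfals ranked 189 of 11951 genes for likeness to Igf1.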

How the data were processed

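Liver RNA of 18 mice was sequenced, 1 library per mouse, from RNeasy extracts and TruSeq v2 libraries per the labels' protocols. Per the submitters' processing notes, mm10 was the genome and the tools were featureCounts 1.4.3-p1, HTSeq 0.5.3p9, STAR 2.3.0e and DESeq, whose roles are not given. Strandedness is not given in the sources used here. Per the file headers, the authors deposited unnormalised counts for each mouse, in 1 table for 6 males and 1 for 12 females. The table of males also holds a gene length in bases deposited by the authors, used for levels per kilobase. Male Ensembl IDs were matched to symbols in GENCODE M21 (GRCm38), 96.6% of 38924, and 0 columns were left unmatched. No libraries held identical counts.

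In R 4.3.3, edgeR 4.0.16 was used for its robust quasi-likelihood test with TMM factors, on genes that passed filterByExpr at a count of 10 and a total of 15. P-values were Benjamini-Hochberg adjusted over all genes, with a threshold of 0.05. Each SE was derived from the F statistic, and the 95% intervals are approximate. Each LDP comparison used its own 6 libraries, grouped by the labels. The female-minus-recipient difference of effects and the recipient comparison used the 12 female libraries, and the male-minus-female difference the 20058 names in both tables. For spreads and likeness, 0.1 CPM was added before taking log2. Alternatives were DESeq2 1.42.0, RLE and upper quartile factors, other count filters, a fit that is not robust, a spread shared by 12 libraries, and leaving out each mouse. The tests were also run on simulated data.

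The members and gene lists were chosen with earlier results of these data known. All 10 members are named. From each list and comparison the rule names up to 4 genes of smallest p that passed or, where none did, the 2 of smallest unadjusted p, of which some are left out for space. Markers are given as sums, and 3 genes are named for likeness to Igf1, Igfbp1 and Socs2. Col1a1 and Col3a1 are named as examples of their list. Promoter sequences are from RefSeq (GRCm38.p6). Some genes counted in the lists are not reported here by name.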

Additional observations from a re-analysis of the deposited data

How the results depend on the processing

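Over all alternatives, 825 of 893 values of the members kept their direction and their side of the threshold, 11 lost a call, 6 gained one and 51 changed sign. Of the values of the named list genes, 1944 of 1980 did so. The Igfbp1 difference between recipients and C57BL6J females passed in every alternative run. The number of genes past the threshold moved with the tool: DESeq2 called 42 genes in males, 15 in females (1 member, Igfbp3) and 28 in recipients, 1 for the male-minus-female and 12 for the female-minus-recipient difference of effects. With no filter on low counts edgeR called 2 genes in males, 1 in females and 2 in recipients, and with 12 libraries sharing the spread 0 in males and 3 in recipients. With upper quartile factors 1 member passed in recipients over C57BL6J females.

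Leaving out 1 mouse at a time gave 0 to 66 genes and 0 to 1 members in males, 0 to 1 genes in females, and 0 to 4 genes and 0 to 1 members in recipients. It gave 0 to 1 genes for the male-minus-female and 0 to 3 for the female-minus-recipient difference of effects, and 1 to 2 members in recipients over C57BL6J females.

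Signs changed for small or scattered differences (log2, lowest to highest over single left-out mice). In males these were Igfbp1 (-0.81 to 0.29), Igfals (-0.065 to 0.056), Insr (-0.047 to 0.088), Socs2 (-0.90 to 0.091) and Cish (-0.89 to 0.14). In females they were Ghr (-0.20 to 0.15), Insr (-0.12 to 0.072), Igf1 (-0.051 to 0.19) and Igfbp1 (-0.16 to 0.42). In recipients they were Igfbp1 (-0.28 to 0.20), Cish (-0.27 to 1.38) and Igfbp3 (-0.012 to 0.45). For the male-minus-female difference they were Igf1 (-0.11 to 0.14), Insr (-0.037 to 0.16), Igfbp1 (-1.01 to 0.10), Ghr (-0.071 to 0.27), Pdk4 (-0.10 to 0.72) and Nr0b2 (-0.045 to 0.91). For the female-minus-recipient difference they were Socs2 (-1.01 to 0.45), Cish (-0.38 to 1.33), Igfbp1 (-0.15 to 0.48) and Igfbp2 (-0.55 to 0.15), and for recipients over C57BL6J females Ghr (-0.071 to 0.10) and Socs2 (-0.66 to 0.28). Upper quartile factors turned Insr in females to 0.0068 and Ghr in recipients over C57BL6J females to -0.0049, and DESeq2 and RLE factors turned the male-minus-female difference of Igf1 to 0.0028. The cause was not tested.

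No paired analysis was possible because the groups compared share no replicate numbers. With 3 mice a group, Cish and Socs2 were among the 3 members of widest interval in each LDP comparison. The female libraries are shallower than the male ones, with Cish at 99 to 1025 counts.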
